A study of Arabidopsis thaliana with 6 samples.

Results

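The fast-acting stress regulators of Arabidopsis thaliana described here are the transcription factor genes WRKY53, WRKY6, WRKY22 and STZ and the ubiquitin E3 ligase genes PUB22 and PUB23, 6 genes in all. They were picked as named genes with earlier results of these data known, so counts of them set against all probe sets are a description. Each of the 6 was measured by 1 probe set that the platform annotation gives to that gene alone, out of 13286 loci named in the annotation used. Their signal was read on 6 Affymetrix ATH1 arrays of shoots from 3-week-old seedlings. The 3 EBE-XVE arrays came from line 14, a Col-0 line in which estradiol induces the AP2/ERF transcription factor gene EBE, and the 3 WT arrays came from Col-0. Seedlings of both genotypes had been shaken in liquid medium for 16 h and then given 2 µM β-estradiol for 45 min, so no untreated sample stands beside them and the EBE-XVE plants are a single line. The study set out to find early targets of EBE. Effects of induced EBE and of line 14 itself cannot be told apart, and in whole shoots neither can fewer cells of a type and less RNA per cell.

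WRKY proteins bind W-box elements in promoters and form a large plant family of activators and repressors, many of them induced within minutes of a pathogen signal or wound. STZ, also called ZAT10, is a C2H2 zinc finger repressor induced by salt, cold, drought, light stress and wounding. PUB22 and PUB23 are closely related U-box E3 ligases which, with PUB24, dampen immune signalling by marking partner proteins for degradation, and their transcripts are short-lived and quickly induced by pathogen signals and drought.

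Values are log2 signal per probe set. A difference of 1 is 2-fold, if the deposited values are base 2 as their range implies. EBE itself read 8.55, 7.21 and 3.19 in EBE-XVE replicates 1, 2 and 3, against 4.26, 2.98 and 3.02 in the WT replicates, so the array labelled EBE-XVE replicate 3 shows no raised EBE. The array median was higher in replicate 1, at 5.38 for EBE-XVE and 5.47 for WT, than on the remaining 4 arrays, at 4.44 to 4.50. Of 11 shoot markers 4 had a probe set named in the annotation used, and they read 10.97 to 14.20 on all arrays, above every array's upper quartile (7.38 to 8.07). Of 9 root markers 3 had one, with summed signal of 12.78 to 15.76 in EBE-XVE and 12.59 to 15.85 in WT, high on the replicate 1 array of each genotype through PYK10, while EXPA7 and EXPA18 read 1.75 to 2.13. The part of these replicate 1 differences in the results below was not tested, beyond the comparisons within pairs of equal replicate number.

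WRKY53, an activator of leaf senescence and defence genes (AT4G23810), read 6.53, 6.66 and 3.93 in EBE-XVE replicates 1, 2 and 3, against 7.96, 4.28 and 4.29 in WT. The groups overlapped, with high signal on both replicate 1 arrays and on EBE-XVE replicate 2. Means were 5.71 ± 1.54 in EBE-XVE and 5.51 ± 2.12 in WT (SD, n = 3 each), a difference of 0.20 (SE 1.26). Within pairs 1, 2 and 3, EBE-XVE differed from WT by -1.43, 2.39 and -0.36, so the 5.23-fold higher signal of pair 2 stood beside a 2.69-fold lower one in pair 1. The means differed by 1.09 once the array labelled EBE-XVE replicate 3 was omitted and by 1.43 without WT replicate 1, but 4 of the 6 omissions of an array turned the sign: EBE-XVE replicate 1 (-0.21), EBE-XVE replicate 2 (-0.28), WT replicate 2 (-0.41) and WT replicate 3 (-0.41).

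In WRKY6 (AT1G62300), a factor tied to senescence, phosphate transport and pathogen defence, the 3 EBE-XVE arrays held 7.02, 6.25 and 6.12, and the 3 WT arrays 7.95, 5.87 and 6.14. Both genotypes were highest in replicate 1, and the other 4 arrays lay within 0.38 of each other. The group means were 6.46 ± 0.48 in EBE-XVE and 6.65 ± 1.13 in WT (SD, n = 3 each), which differed by -0.19 (SE 0.62). Omitting the array labelled EBE-XVE replicate 3 brought this to -0.02, and omitting WT replicate 1 turned it to 0.46. The pair differences were -0.93, 0.38 and -0.02, and the last turned to 0.01 with median centring and thus carries no direction.

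For WRKY22 (AT4G01250), which acts downstream of a MAP kinase cascade in the response to bacterial flagellin and also in submergence, EBE-XVE signal was 4.13, 7.46 and 4.68, against 4.12, 5.04 and 5.11 in WT. A single array, EBE-XVE replicate 2, stood far above the rest, and unlike the other members WRKY22 was lowest on both replicate 1 arrays. Means of 5.42 ± 1.78 in EBE-XVE and 4.76 ± 0.55 in WT (SD, n = 3 each) differed by 0.67 (SE 0.91), or by -0.35 without EBE-XVE replicate 2. The difference was 1.04 when the array labelled EBE-XVE replicate 3 was omitted, 1.31 without EBE-XVE replicate 1 and 0.35 without WT replicate 1. Pairs 1, 2 and 3 gave 0.01, 2.41 and -0.42, a 5.32-fold higher signal in pair 2 and under 2-fold in the other pairs.

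STZ (AT1G27730) had 7.92, 8.97 and 9.09 in EBE-XVE, against 10.04, 7.61 and 7.67 in WT. It was the only member at least 2-fold apart in all 3 pairs, and the direction was not the same. EBE-XVE was 4.35-fold lower in pair 1 (-2.12), 2.56-fold higher in pair 2 (1.35) and 2.68-fold higher in pair 3 (1.42). The higher signal of pair 3 came from the array that showed no raised EBE. Group means, at 8.66 ± 0.64 in EBE-XVE and 8.44 ± 1.38 in WT (SD, n = 3 each), averaged over these opposite signs, with a difference of 0.22 (SE 0.74), or 0.002 when the array labelled EBE-XVE replicate 3 was omitted. It was 1.02 without WT replicate 1, and turned to -0.20 and -0.17 without WT replicates 2 and 3.

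Of the E3 ligases, PUB22 (AT3G52450) read 2.44, 2.41 and 2.41 in EBE-XVE, against 3.50, 2.39 and 2.40 in WT. Only WT replicate 1 lay above the lower quartile of its array (2.50 to 2.67 over the 6 arrays), and differences among the other 5, near the dim end of the scale, could have gone unseen. Its difference of -0.34 (SE 0.31) between means of 2.42 ± 0.02 in EBE-XVE and 2.76 ± 0.64 in WT (SD, n = 3 each) rested on pair 1 (-1.06) and was 0.02 without WT replicate 1. Pairs 2 and 3 each gave 0.01, and the sign in pair 2 turned with median centring (-0.03).

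PUB23 (AT2G35930) held 4.92, 3.25 and 2.63 in the EBE-XVE replicates and 6.39, 2.79 and 2.77 in the WT replicates. As with WRKY6, both replicate 1 arrays were highest and EBE-XVE was the lower of them. Means were 3.60 ± 1.18 in EBE-XVE and 3.98 ± 2.08 in WT (SD, n = 3 each). The difference was -0.38 (SE 1.14), or 0.10 when the array labelled EBE-XVE replicate 3 was omitted and 0.82 without WT replicate 1, and the pairs gave -1.47, 0.46 and -0.14.

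**Figure D1:**
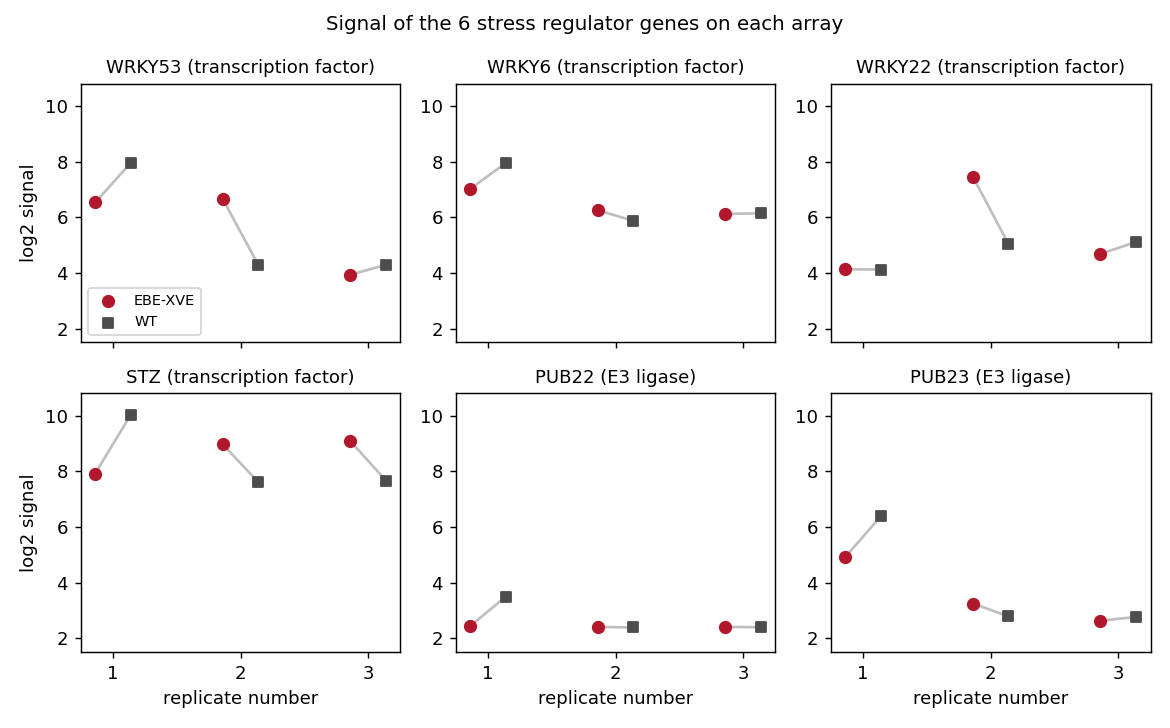
Log2 signal (vertical axis) of each gene by replicate number (horizontal axis), with EBE-XVE as red circles, WT as grey squares and a line joining each pair, 1 array a point. WT replicate 1 is the highest of the 6 arrays for every gene but WRKY22, while STZ crosses over, with EBE-XVE at 7.92 below WT at 10.04 in replicate 1 and above it in replicates 2 and 3.

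None of the 6 genes passed in the comparison of EBE-XVE with WT by limma (adjusted p = 1.00 for each), and the values of the 2 genotypes overlapped for all 6. An adjusted p under 0.05 counted as a pass. Over all 22746 probe sets 0% were called higher and 0% lower, and 1.38% had groups that did not overlap. At an unadjusted p under 0.05, limma found 79 of the 22746 probe sets and the unmoderated statistic 107, with 0 of the 6 members in either. EBE itself, with a difference of 2.9 (SE 1.38), did not pass (unadjusted p = 0.0812 in limma). The fit has no block, so the differences of replicate 1 from the other arrays enter its spread. In simulated data that kept them, it recovered 21.9% of changes of 1 log2 unit and 54.5% of changes of 2. A gene that differs can thus fail to pass. The replicate titles call the arrays biological replicates, and p-values measure the spread between these 3 arrays a group. With replicate number as a block the adjusted p stayed at 1.00 for all 6.

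Signal of the 6 genes differed between arrays, and none kept a clear direction over the 3 pairs, with PUB22 at 0.01 in pairs 2 and 3. The range over the 6 arrays was 4.02 for WRKY53, 3.76 for PUB23, 3.34 for WRKY22, 2.43 for STZ, 2.08 for WRKY6 and 1.11 for PUB22, where the median over all probe sets was 0.74. The share of all probe sets with a smaller range was 90.2% or more for 5 of the genes and 66.0% for PUB22. WT replicate 1 was the highest array for 5 of the 6 genes, as for 22.4% of all probe sets (6.66% with median centring, which put STZ highest on EBE-XVE replicate 3), and EBE-XVE replicate 2 was highest for WRKY22, as for 2.52% of all. In pair 1, 4 of the 6 were at least 2-fold lower in EBE-XVE (WRKY53, STZ, PUB22 and PUB23), as were 3.53% of all probe sets, and 0 were at least 2-fold higher, against 1.41%. PUB22 was under that fold after quantile normalization (-0.82) and median centring (-0.97), which leaves 3 of the 6. In pair 2, 3 of the 6 were at least 2-fold higher (WRKY53, WRKY22 and STZ), against 1.52% of all probe sets, and 0 were at least 2-fold lower, against 0.659%. In pair 3 STZ was at least 2-fold higher, against 1.04% of all probe sets, and 0 members were at least 2-fold lower, against 1.21%. Each of these shares compares 1 array with 1 array and has no replicate check.

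EBE is set beside the 6 genes pair by pair as a description, and a link between them was not tested. EBE was 4.29 and 4.23 log2 units above WT in pairs 1 and 2. The median of the 6 genes was -1.24 in pair 1 (from -2.12 to 0.01) and 0.91 in pair 2 (from 0.01 to 2.41). In pair 3, where EBE differed by 0.17, the median was -0.08. The medians of all probe sets were 0.03, 0.01 and -0.05 in pairs 1, 2 and 3, and the members' medians kept their 3 signs after quantile normalization, at -1.21, 0.93 and -0.05. Median centring put them at -1.15, 0.86 and -0.05, beside all-probe-set medians of 0.12, -0.04 and -0.02.

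**Figure D2:**
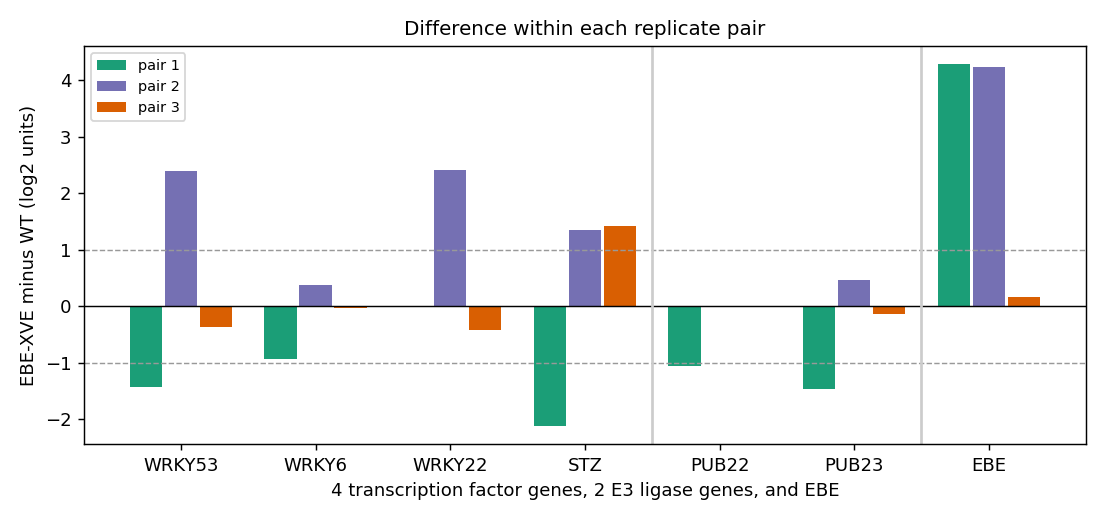
EBE-XVE minus WT in log2 units (vertical axis) for each gene (horizontal axis), 1 bar for each replicate pair, with dashed lines at a 2-fold difference. EBE is about equally high in pairs 1 and 2 (4.29 and 4.23), where the stress regulators lie mostly below and above 0.

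Set beside each other, the transcription factors and the E3 ligases had similar medians in pair 1 and unlike ones in pair 2. In pair 1 the 4 transcription factor genes had a median of -1.18 (from -2.12 to 0.01) and the 2 E3 ligase genes -1.26 (from -1.47 to -1.06). In pair 2 the transcription factor genes had a median of 1.87 (from 0.38 to 2.41), of which 3 were at least 2-fold higher, while the E3 ligase genes had 0.24 (0.01 and 0.46) and neither reached 2-fold. In pair 3 the medians were -0.19 and -0.06, and STZ alone lay outside -0.42 to 0.01. In pairs 2 and 3 WRKY6 lay nearer to PUB23 than to WRKY53 and WRKY22, at 0.38 beside 0.46 and -0.02 beside -0.14. In pair 1 PUB23 (-1.47) lay nearer to WRKY53 (-1.43) than to WRKY6 (-0.93). With 2 genes on one side and PUB22 near the dim end, these values are a description and were not tested. PUB23 was also low in replicates 2 and 3, at 2.63 to 3.25, so differences there could have gone unseen. The lower quartiles of those arrays were 2.50 to 2.57 and their medians 4.44 to 4.50.

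**Figure D3:**
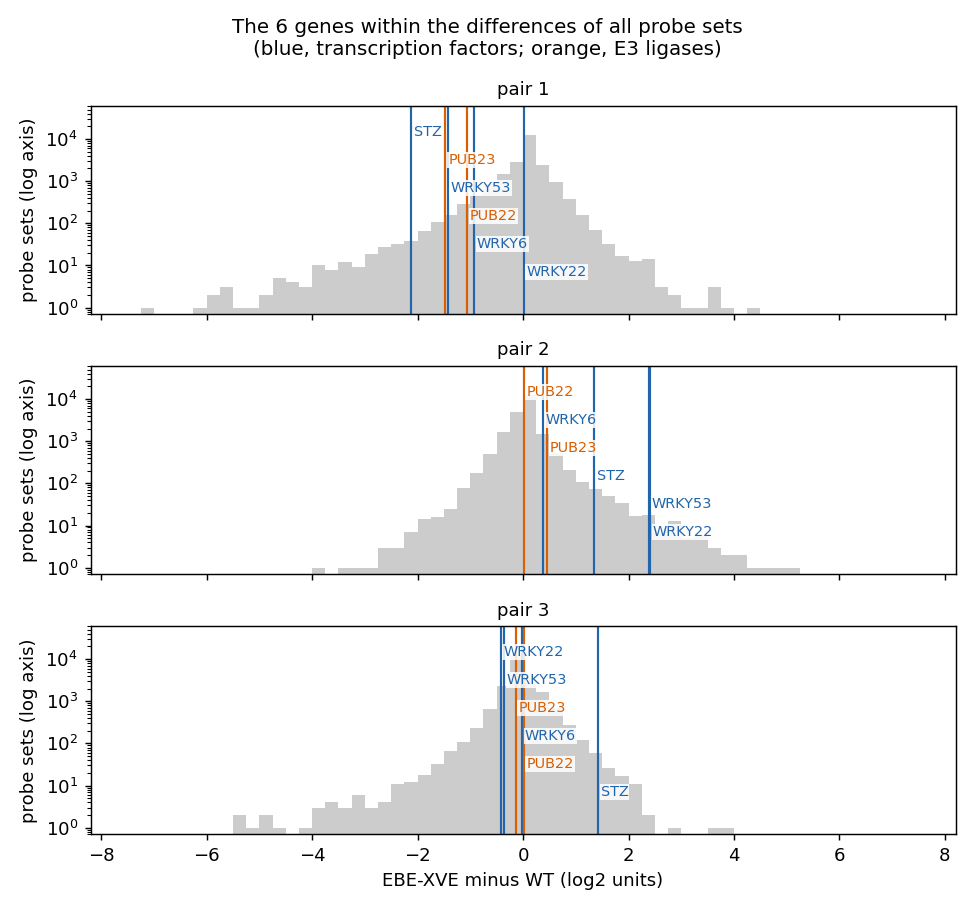
Number of probe sets (vertical axis, log scale) by EBE-XVE minus WT in log2 units (horizontal axis) in each replicate pair, with vertical lines at the transcription factors (blue) and the E3 ligases (orange). STZ lies at -2.12 in the lower tail of pair 1 and at 1.35 and 1.42 in the upper tails of pairs 2 and 3, and WRKY53 and WRKY22 lie at 2.39 and 2.41 in the upper tail of pair 2.

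Whether the genotype difference in replicate 1 departed from that in replicates 2 and 3 was tested by an interaction term in limma, a test chosen after the data were seen. STZ and PUB22 passed, 2 of 6 members, both with a lower EBE-XVE minus WT difference in replicate 1. Of all probe sets 1.18% passed, 0.734% in that direction (102 higher and 167 lower, or 178 and 169 with median centring). For STZ the difference was -2.12 in replicate 1 and 1.39 on average in replicates 2 and 3, a departure of -3.51 (SE 0.24, adjusted p = 0.0076). For PUB22 it was -1.06 and 0.01, a departure of -1.08 (SE 0.06, adjusted p = 0.0034). WRKY53 (-2.44, SE 1.55), PUB23 (-1.62, SE 0.38), WRKY6 (-1.11, SE 0.30) and WRKY22 (-0.98, SE 1.57) did not pass, with adjusted p of 0.70, 0.26, 0.35 and 0.75. Replicate 1 holds 1 array a genotype, so the spread behind this test came from replicates 2 and 3 and from the trend over all probe sets, and the small SE of PUB22 from 4 dim arrays. The call for STZ was lost with the dim probe sets left out (adjusted p = 0.0808), where no probe set was called, and that for PUB22 without the mean-variance trend (0.0848), where 84 probe sets were called in place of 269.

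Between replicates 2 and 3, WRKY53 and WRKY22 were far apart on the EBE-XVE arrays and close on the WT arrays. Replicates 2 and 3 of EBE-XVE differed by 2.73 for WRKY53, 2.77 for WRKY22, 0.62 for PUB23, 0.13 for STZ, 0.12 for WRKY6 and 0.00 for the dim PUB22. Those of WT differed by 0.01 for WRKY53, 0.06 for WRKY22, 0.02 for PUB23, 0.06 for STZ, 0.28 for WRKY6 and 0.00 for PUB22. WRKY53 and WRKY22 were thus the 2 members at least 2-fold apart between the EBE-XVE arrays, as were 4.36% of all probe sets, and 0 of the 6 members were so between the WT arrays, against 0.193%. STZ was alike on the 2 EBE-XVE arrays, at 8.97 with EBE at 7.21 and at 9.09 with EBE at 3.19. In a fit on replicates 2 and 3 alone STZ was 1.39 higher in EBE-XVE (SE 0.13) and did not pass in limma (adjusted p = 0.55).

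Among 7 other U-box (PUB) genes with a named probe set, PUB24, which acts with PUB22 and PUB23 in immunity, had the same shape. PUB24 read 4.33, 3.28 and 3.26 in EBE-XVE, against 6.07, 3.27 and 3.28 in WT, so that pair 1 differed by -1.74 and pairs 2 and 3 by 0.01 and -0.02. As deposited, PUB22, PUB23, PUB24 and PUB25 were each at least 2-fold lower in EBE-XVE in pair 1, as were 3.53% of all probe sets. In the other pairs all of them were under 2-fold apart. With quantile normalization and with median centring this held for PUB23 (-1.44 and -1.37 in pair 1) and PUB24 (-1.59 and -1.65). PUB22 and PUB25 (-0.72 and -0.93 for PUB25) were then under 2-fold in pair 1. PUB24 also passed the interaction test (-1.74, SE 0.17, adjusted p = 0.0240 in limma), and PUB25 did not (-1.21, SE 0.59, adjusted p = 0.67). The small SE of PUB24 came from replicates 2 and 3, where it read 3.26 to 3.28, below those arrays' medians of 4.44 to 4.50. No probe set passed the interaction test with the dim probe sets left out. PUB25 differed by -1.03, -0.29 and 0.66 in the 3 pairs. PUB26 was at -0.17 in pair 1, PUB43 and PUB49 at 0.25 each, and PUB15 and PUB19 within 0.04 of 0 in every pair. By group means, EBE-XVE lay above WT for 3 of the 7 and below it for 4, and 0 passed in limma.

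Only 3 other WRKY genes had a probe set named in the annotation used, which leaves 8730 probe sets without a name, so they do not stand for the family. WRKY47 read 7.70, 5.31 and 3.01 in EBE-XVE, against 6.89, 4.14 and 4.68 in WT, with pair differences of 0.80, 1.17 and -1.67. WRKY47 thus shared the higher signal of pair 2 with WRKY53 and WRKY22, while in pair 1, where WRKY22 was at 0.01 and WRKY53 at -1.43, it was above WT. WRKY20 differed by 0.05 or less in size in every pair, and WRKY42 was dim on all arrays, at 1.98 to 2.12. The 3 had a median difference of 0.01, and 0 passed in limma. No other gene of the STZ zinc finger family was named, nor WRKY29, WRKY33, WRKY40, MPK3 or FRK1.

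**Figure D4:**
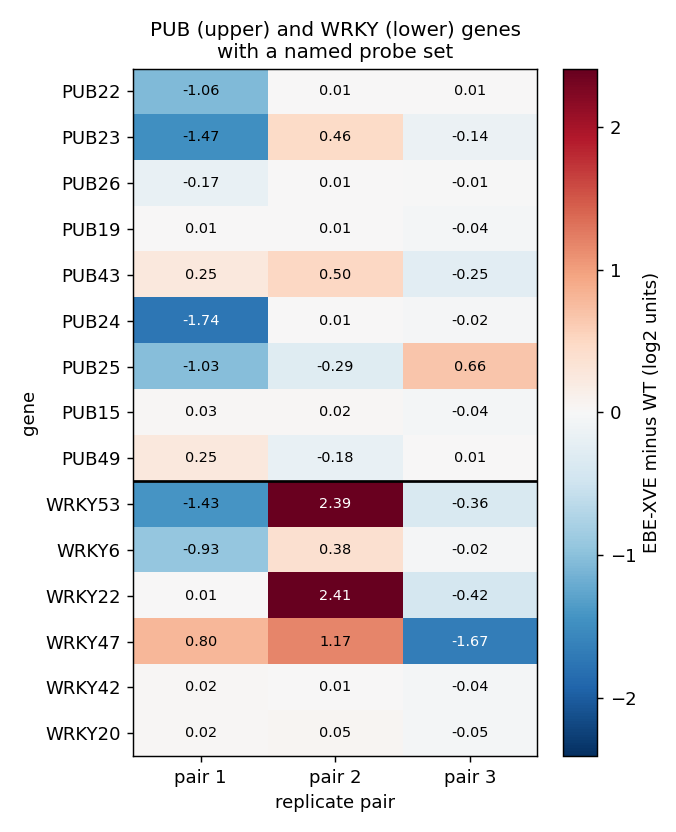
EBE-XVE minus WT in log2 units (colour and printed value) in the 3 replicate pairs (horizontal axis) for the 9 PUB genes and the 6 WRKY genes with a named probe set (vertical axis). PUB22, PUB23, PUB24 and PUB25 share low values in pair 1, from -1.74 to -1.03. WRKY53 and WRKY22 share high values in pair 2, at 2.39 and 2.41.

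Other genes of the same pathways were few. Of 27 early defence signalling genes listed, 2 had a probe set named in the annotation used, in which 8730 probe sets have no name, the receptor-associated kinase gene BIK1 (0.53, -0.08 and 0.74 in pairs 1, 2 and 3) and the bacterial elongation factor receptor gene EFR (0.54, 0.39 and -0.11). Both lay above WT between group means and 0 passed in limma. Of 41 rapid stress genes 2 had a named probe set. The calmodulin-like gene CML38 read 7.12, 9.19 and 7.06 in EBE-XVE, against 7.66, 5.89 and 6.66 in WT, and its pair differences of -0.54, 3.29 and 0.40 peaked in pair 2 like those of WRKY53 and WRKY22. ORA47, the other, was dim, at 2.26 to 2.51. Of 17 listed partners and targets of the 6 regulators, RPN12A, a proteasome subunit gene whose product PUB22 and PUB23 mark with ubiquitin, differed by 0.13, -0.13 and -0.22, and the senescence gene SAG101 by 0.54, 1.37 and -0.04. No gene of either list passed in limma.

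A further family, 7 calmodulin-like calcium sensor genes, was added once the values were known. In pair 2, 3 of them were at least 2-fold higher in EBE-XVE (CML38 at 3.29, CML41 at 2.24 and CML23 at 1.40), against 1.52% of all probe sets, and in pair 1, 2 were at least 2-fold lower (CML42 at -1.78 and CML30 at -1.06), against 3.53%, though CML30 was at -0.97 with median centring. Their median difference between group means was -0.02, and 0 passed in limma.

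Low-oxygen genes differed in opposite directions in pairs 2 and 3, and none passed in limma. Of 20 listed, 6 had a named probe set, with medians of -0.07, 2.37 and -1.20 in pairs 1, 2 and 3. In pair 2, where WRKY53 and WRKY22 were high, 4 of the 6 were at least 2-fold higher in EBE-XVE, against 1.52% of all probe sets. In pair 3, where WRKY53 and WRKY22 were under 2-fold apart, 3 were at least 2-fold lower, against 1.21%: WIP4 at -5.48, HUP54 at -1.49 and HUP32 at -1.42, with HUP9 joining them under quantile normalization (-1.07). The trihelix repressor gene HRA1 (AT3G10040) read 3.15, 8.25 and 2.59 in EBE-XVE, against 3.58, 3.49 and 3.47 in WT, so EBE-XVE replicate 2 stood above the other 5 arrays there as it did for WRKY22. HUP9 (AT5G10040) had pair differences of 1.27, 1.51 and -0.98, HRA1 of -0.43, 4.75 and -0.88, and HUP32 (AT1G33055) of 0.01, 3.79 and -1.42, and their unadjusted p in limma were 0.462, 0.469 and 0.641. The part of these low-oxygen differences in the WRKY values was not tested.

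Likeness over the 6 arrays was measured as Pearson's r among probe sets of 1 gene symbol with an SD of at least 0.5, and is given as a description. The members share the arrays and their replicate 1 shift, and 6 points fit many genes closely. PUB23 and WRKY6 were the closest members (r = 0.99, rho = 0.83). WRKY53 also followed PUB23 (r = 0.88, rho = 0.89) and WRKY6 (r = 0.85, rho = 0.89), while WRKY22 had r of -0.48 to 0.00 with all 5 others. An r above 0.9 was reached by 45.6% of 3523 candidates with PUB23 and by 32.0% with WRKY6, but by 3.78% with WRKY53, 3.69% with PUB22, 0.142% with WRKY22 and 0.0852% with STZ.

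The nearest genes were chosen by their r, so their likeness to each member is not a separate result. Closest to STZ were AT4G27280 (r = 0.939, rho = 0.94), with pair differences of -1.39, 0.34 and 0.97, and the bZIP transcription factor gene BZIP61 (r = 0.922, rho = 0.94), with -1.30, 0.38 and 0.51. Unlike STZ, both were under 2-fold apart in pairs 2 and 3. Closest to WRKY22 were AT5G42200 (r = 0.979, rho = 0.89) and the glutathione transferase gene GSTU25 (r = 0.975, rho = 1.00), which differed by 1.43 and 2.83 in pair 2. WRKY53 was matched by AT3G13950 (r = 0.997, rho = 0.94), at -1.74, 3.26 and -0.46, and AT1G65690 (r = 0.990, rho = 0.94), at -1.62, 2.36 and -0.37. PUB22 was matched by genes near their lowest signal on every array but WT replicate 1, the peroxidase gene PRX52 (7.99 there and 2.07 to 2.20 elsewhere, rho = 0.60) and AT5G40590 (6.47 there and 2.46 to 2.60 elsewhere, rho = 0.60). For WRKY6 the nearest were AT1G64610 (r = 0.995, rho = 1.00) and AT3G57700 (r = 0.993, rho = 0.94), and for PUB23 they were AT5G61560 and AT5G13090 (r = 0.999 and rho = 0.94 each).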

How the data were processed

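Signal per probe set was used as deposited by the authors, read as log2 from its range because no source used here states the base. GCRMA and RMA are named per the submitters' processing notes, with neither version nor role. Scan dates and batches were not analysed here, and precision is limited by there being 6 arrays. Titles gave each array's group and replicate number.

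Of 22810 probe sets 64 manufacturer's controls were left out and 22746 tested. The platform annotation gave 1 symbol to 13513, several to 503 and none to 8730, and 13436 matched a locus in the RefSeq table of TAIR10.1, from which names alone were taken. EBE-XVE was compared with WT in limma 3.58.1 (R 4.3.3; lmFit, genotype as sole term, eBayes with a mean-variance trend), 2-sided, with Benjamini-Hochberg adjustment over all probe sets and a threshold of 0.05. The interaction fit had genotype, replicate 1 against the others, and their product. For lists, a locus with several probe sets was represented by the one of highest mean signal, and no test was run on a list. Deviations from group means correlated at 0.79, 0.54 and 0.58 within pairs 1, 2 and 3, so replicate numbers were treated as pairs, although the crossed pairs of replicates 2 and 3 correlated as well (0.55 and 0.60). No array duplicated another (SD of the difference at least 0.20).

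The members and lists were chosen with earlier results of these data known. Named besides the members were EBE, PUB24, the 3 listed genes of smallest p in each list and the 2 probe sets most like each member; CML genes, WIP4, HUP54 and the remaining PUB genes were named after their values were seen.

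The fits were tested on simulated data. Of changes of 2 log2 units, the fit without a block recovered 54.5%, the block for replicate 1 97.0% and the interaction fit 50.0%. False calls were 0, 7 and 5. Changes were equal on all 3 EBE-XVE arrays, or on EBE-XVE replicate 1 alone for the interaction. The spread was that of the fit with the block for replicate 1. In the data EBE-XVE replicate 3 shows no raised EBE, so these shares can be too high. That block called 0 probe sets in the data. Alternatives were quantile normalization, centring on array medians, a robust prior, no trend in eBayes, omission of probe sets under the 40th percentile of mean signal, single-gene probe sets only, a replicate block, a block for replicate 1 with and without EBE-XVE replicate 3, replicates 2 and 3 only, and omission of each array. Counts were also taken at an adjusted p of 0.01 and with the unmoderated statistic.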

Additional observations from a re-analysis of the deposited data

Results flagged for a closer look

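For STZ the EBE-XVE minus WT difference in replicate 1 departed from that in replicates 2 and 3 by -3.51 log2 units (-2.12 against 1.39), and the interaction test in limma gave an adjusted p of 0.0076. For PUB22 the same departure was -1.08 (-1.06 against 0.01), with an adjusted p of 0.0034. Both tests were chosen after the data were seen and rest on 1 array a genotype in replicate 1.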

How the results depend on the processing

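The difference between EBE-XVE and WT passed in 0 of 95 combinations of a gene with an alternative (limma, adjusted p from 0.55 to 1.00), the replicate block included (WRKY53 0.20, WRKY6 -0.19, WRKY22 0.67, STZ 0.22, PUB22 -0.34 and PUB23 -0.38), and that block changed no call. The sign turned in 15 of them. Within replicates 2 and 3 only, WRKY6 was at 0.18, PUB22 at 0.01 and PUB23 at 0.16. With the block for replicate 1 and EBE-XVE replicate 3 left out, STZ was at -0.15. With each array left out, without a block, the ranges were -0.41 to 1.43 for WRKY53, -0.59 to 0.46 for WRKY6, -0.35 to 1.31 for WRKY22, -0.20 to 1.02 for STZ, -0.53 to 0.02 for PUB22 and -1.04 to 0.82 for PUB23. For 5 of the genes the top of the range was the fit without WT replicate 1, and for WRKY22 without EBE-XVE replicate 1. The counts of called probe sets were 0 higher and 0 lower, and 0 when each array was left out. They became 1 higher with the block for replicate 1 and EBE-XVE replicate 3 left out, and 3 lower within replicates 2 and 3 only. The departure of replicate 1 kept its sign in all alternatives but 1, WRKY22 at 0.41 without EBE-XVE replicate 2. It stayed at -3.51 for STZ with the dim probe sets left out (adjusted p = 0.0808) and at -1.08 for PUB22 without the trend (0.0848), where the calls were lost. Over the other alternatives that kept every array, the adjusted p of both stayed under 0.05. With an array of replicates 2 or 3 left out, its ranges were -3.81 to -1.08 for WRKY53, -1.25 to -0.97 for WRKY6, -2.37 to 0.41 for WRKY22, -3.57 to -3.45 for STZ, -1.08 to -1.07 for PUB22 and -1.94 to -1.31 for PUB23. Those fits have 1 residual degree of freedom and take nearly all their variance from the trend, so their calls (915 to 4728 probe sets) say nothing of stability. The number of probe sets called by the interaction was 269, 84 without the trend and 0 of 13648 with the dim probe sets left out. PUB22 itself falls among the dim probe sets and gave no value there, and the zinc finger family had no named gene besides STZ and so no median. What causes these shifts was not tested. Without detection calls, how far a dim probe set such as PUB22 lies above background was not analysed here.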
